A study of Mus musculus with 10 samples.

Results

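The epidermal growth factor (EGF) family ligands, the ERBB receptors that bind them and the receptor inhibitor Errfi1 were followed in mouse lung after airway exposure to IL-33. The genes were 9 of the 53465 listed in the counts, chosen by name from the pathway and matched by Ensembl identifier. They were the ligands Areg, Ereg, Hbegf, Tgfa and Btc, the receptors Egfr, Erbb2 and Erbb3, and Errfi1. All mice were of the BALB/c strain. The IL-33 group, 5 mice, received 1 µg of the cytokine in 35 µL through the nose daily for 5 days, and lung was collected 24 hours after the last dose. The control group, 5 mice, is called untreated in the series' design, and no vehicle is named in the sources used here. Each library is polyA-selected RNA of lung tissue, so values are averages over all lung cells, and a smaller share of a cell type and less RNA per cell cannot be told apart. Neither age nor sex of the mice is stated in those sources, and replicate libraries are treated as separate mice because the labels list them as separate samples.

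EGF family ligands are made as membrane-anchored precursors, and metalloproteases such as ADAM17 cut them free. The released ligands bind EGFR, which pairs with itself or with ERBB2, a partner without a known soluble ligand of its own, while ERBB3 is a neuregulin receptor with weak kinase activity. Receptor pairs signal through RAS and ERK, and the adaptor protein encoded by Errfi1 binds the EGFR kinase domain and blocks it. In lung, amphiregulin, the product of Areg, is known as a repair factor made by group 2 innate lymphoid cells, regulatory T cells, mast cells and epithelium.

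Areg rose in IL-33 lungs, by 2.16 ± 0.54 (SE) on the log2 scale. The other ligands did not follow it: Tgfa and Btc fell, Hbegf did not pass the test and Ereg was near the limit of counting. All 3 receptors and Errfi1 fell. Of the 9 genes, 8 passed the filter on low counts and 7 of those were called at an adjusted p under 0.05 by edgeR's quasi-likelihood test, 1 higher and 6 lower, while 69.9% of all 15695 tested genes were called, 35.1% higher and 34.8% lower. The median log2 fold change of the 8 tested genes was -0.96, beside -0.01 over all tested genes. Of the 8, 6 had no overlap between groups, all of them lower in IL-33 lungs, where 56.5% of tested genes had no overlap in either direction and 27.4% were lower without overlap.

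**Figure D1:**
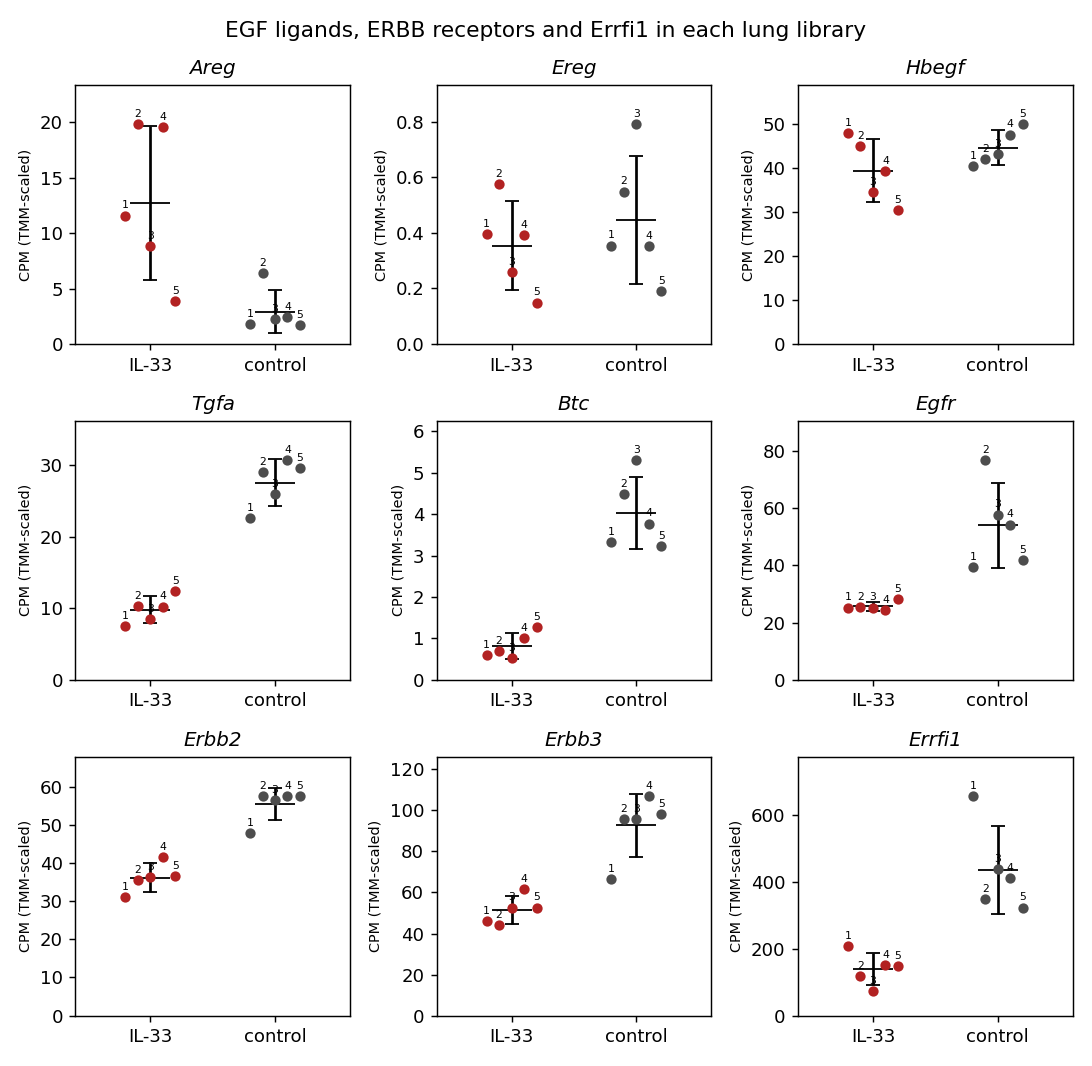
TMM-scaled CPM (linear axes from 0) of the 9 genes in each lung library, IL-33 left and control right. Each point is 1 library with its replicate number, and the bar and whiskers are the mean and SD of 5. Areg overlaps between groups through control 2 and IL-33 library 5, whereas Tgfa, Btc, the receptors and Errfi1 lie lower in every IL-33 library.

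Libraries held 7805175 to 13178798 reads counted in genes for IL-33 and 8935159 to 13767118 for controls. The alveolar type 2 cell gene Sftpc stood at 9358 to 10931 CPM in IL-33 lungs and 9354 to 11857 CPM in controls, and the club cell gene Scgb1a1 at 10698 to 12636 CPM in IL-33 lungs and 16549 to 18453 CPM in controls, so these defining genes of lung epithelium were present in every library. Values in CPM are counts scaled to library size with TMM factors, and each log2 fold change has IL-33 on top, with an SE over the 5 and 5 libraries. Control 1 stood apart from the other controls for several of these genes, as given beside each, and values without single libraries were computed for every result.

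Epgn, Ereg, Areg and Btc, which are all EGFR ligand genes, lie together on chromosome 5 of GRCm38 within 375.5 kilobases, with no other protein-coding gene between them. Ereg (ENSMUSG00000029377) spans 91074622 to 91093646 and Areg (ENSMUSG00000029378) spans 91139599 to 91148432, both on the plus strand. Btc (ENSMUSG00000082361) spans 91357261 to 91402994 on the minus strand. Errfi1 (ENSMUSG00000028967) spans 150853919 to 150868892 of chromosome 4. The 250 bases upstream of the RefSeq starts of Areg and Btc are shown because these neighbours moved in opposite directions, and those of the downstream Errfi1 start because it shares a sequence element with Areg. They are written 5′ to 3′ on the gene's strand, build GRCm38.p6, with the cAMP response element (CRE, TGACGTCA), its core TGACG on either strand and the TATA box TATAAA in capitals.
Areg, chr5:91139349-91139598, plus strand: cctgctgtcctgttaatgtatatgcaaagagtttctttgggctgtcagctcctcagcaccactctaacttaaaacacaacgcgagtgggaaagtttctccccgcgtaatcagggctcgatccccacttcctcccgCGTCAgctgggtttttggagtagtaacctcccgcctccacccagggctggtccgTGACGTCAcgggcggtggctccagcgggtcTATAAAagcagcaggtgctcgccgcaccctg
Btc, chr5:91402995-91403244, minus strand: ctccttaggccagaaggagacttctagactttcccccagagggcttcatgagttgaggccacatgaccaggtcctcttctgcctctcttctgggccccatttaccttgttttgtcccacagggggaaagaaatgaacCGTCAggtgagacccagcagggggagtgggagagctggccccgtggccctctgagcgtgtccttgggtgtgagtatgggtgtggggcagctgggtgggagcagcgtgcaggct
Errfi1, chr4:150854820-150855069, plus strand: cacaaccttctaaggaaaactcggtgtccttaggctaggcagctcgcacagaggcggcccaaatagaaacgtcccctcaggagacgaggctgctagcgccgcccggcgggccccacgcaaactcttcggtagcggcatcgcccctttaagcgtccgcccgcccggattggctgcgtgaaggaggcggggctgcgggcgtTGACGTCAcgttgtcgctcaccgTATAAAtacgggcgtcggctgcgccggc

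The Areg sequence held a full CRE beginning 61 bases before the start and a TATA box 31 bases before it, and the Errfi1 sequence held a full CRE 51 bases and a TATA box 28 bases before its start. Areg held a further CRE core 115 bases before the start. Btc held the core once, 113 bases before the start, and neither the full CRE nor the TATA box. A full CRE, which is a binding sequence of the CREB family of transcription factors, occurred in 1.55% of 32851 upstream windows of this length, its core in 17.8% and the TATA box in 12.4%. Also searched on both strands were AP-1 (TGANTCA, in 6.75% of windows), STAT (5.85%), NF-kB (45.8%) and glucocorticoid receptor (0.387%) motifs. Areg and Btc each held NF-kB letters and no AP-1, STAT or glucocorticoid receptor letters, and the Errfi1 window held STAT and NF-kB letters. Core and full CRE matches overlap, since the full element contains the core on both strands. Areg, with a full CRE, rose and Errfi1, with a full CRE before its downstream start, fell. The window before the upstream Errfi1 start, at 150853796, held neither the CRE, its core nor the TATA box. Which start was used in lung was not tested. Of the other members, Erbb2 held the CRE core once, and neither Tgfa nor Egfr held it. RefSeq upstream sequences were matched for Areg, Btc, Tgfa, Egfr, Erbb2 and Errfi1 (6 of the 9 genes) and not for Ereg, Hbegf and Erbb3.

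Areg encodes amphiregulin, an EGFR ligand of comparatively low affinity. It stood at 11.6, 19.8, 8.84, 19.6 and 3.87 CPM in IL-33 libraries 1 to 5, against 1.77, 6.36, 2.26, 2.46 and 1.71 CPM in control libraries 1 to 5. Of the IL-33 libraries 4 lay above every control, and IL-33 library 5 lay below control 2 and above the other controls. The means were 12.7 ± 6.93 CPM in IL-33 lungs and 2.91 ± 1.95 CPM in controls (SD, n = 5 each), a 4.47-fold difference in the fit with an edgeR adjusted p of 0.000916. Without control 2 the log2 fold change was 2.62, and without IL-33 library 4, the lowest of the single omissions, it was 1.94. Areg is a short transcript, with 1215 bases of exon. In a fit with each library's trend on exon length and GC content removed, Areg's log2 fold change was 1.33 with an adjusted p of 0.0168, and its adjusted p ranged from 2.20e-05 to 0.0168 over the alternatives.

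Areg had the widest SE of the 7 called genes, and the immediate early gene Fos, whose protein is part of AP-1, varied over the same libraries. Fos stood at 73.4, 348, 69.5, 338 and 39.3 CPM in IL-33 libraries 1 to 5 and at 74.5, 253, 74.8, 69.6 and 70.8 CPM in controls 1 to 5. The 3 libraries with the most Fos, IL-33 libraries 2 and 4 and control 2, were also those with the most Areg within their group. Fos itself did not pass the test (log2 0.68 ± 0.74, adjusted p = 0.318). Without those 3 libraries, an omission chosen after the data were seen, Areg's log2 fold change was 1.97 with an adjusted p of 0.000653. Dusp5, an ERK phosphatase gene induced by ERK itself, was likewise highest in IL-33 libraries 4 and 2 and in control 2, with 36.1, 64.5, 49.1, 70.2 and 23.5 CPM in IL-33 libraries 1 to 5 against 14.6, 25.5, 14.4, 17.3 and 15.3 CPM in controls 1 to 5. The summed level of 5 goblet cell markers was likewise highest in IL-33 libraries 4 and 2, at 3108 and 3078 CPM, and, among controls, in control 2 at 99.6 CPM. The summed level of 5 ciliated cell markers was highest in the same libraries, with 358 and 309 CPM in IL-33 libraries 4 and 2 and 572 CPM in control 2. The order was thus not particular to goblet cell markers, nor was it shared by all lists. Group 2 innate lymphoid cell markers summed to 1224, 1018, 1108, 952 and 875 CPM in IL-33 libraries 1 to 5. Regulatory T cell markers summed to 360, 260, 273, 237 and 197 CPM there. Neither sum was highest in control 2 among controls, and Myc was lowest there, at 6.47 CPM.

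**Figure D2:**
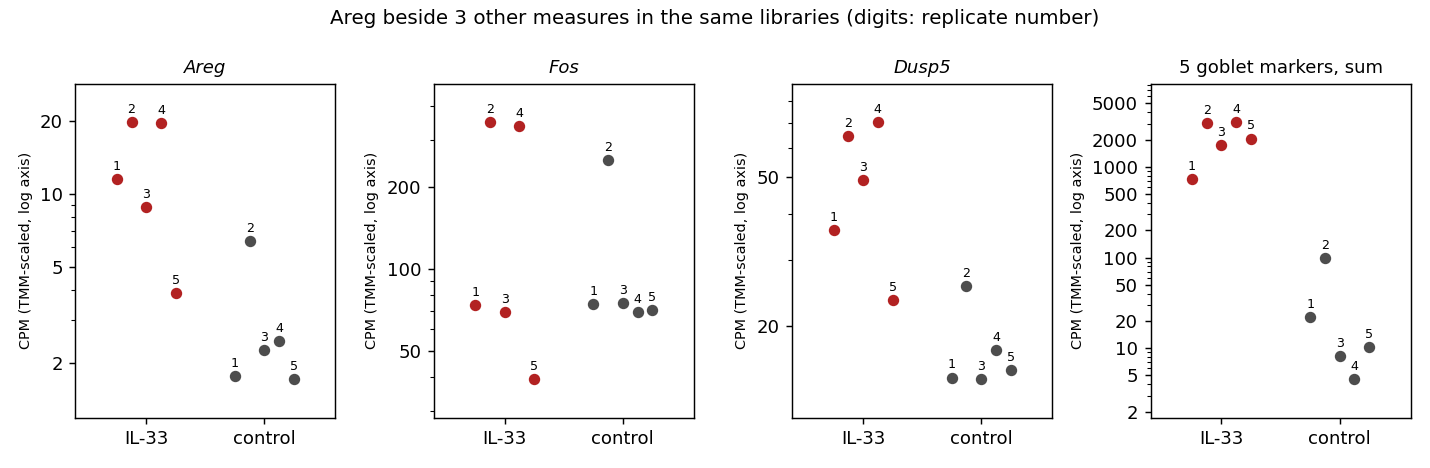
Areg, Fos, Dusp5 and the sum of 5 goblet cell markers (Muc5ac, Clca1, Agr2, Spdef, Itln1) in each library, as CPM on log axes, IL-33 left and control right, with replicate numbers above the points. In each panel control 2 is the highest control, and IL-33 libraries 2 and 4 are the highest of their group. Sums of group 2 innate lymphoid cell and regulatory T cell markers, not shown, did not follow this order.

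Markers of several kinds of cell known to make amphiregulin were also higher in IL-33 lungs. Over all tested genes, 35.1% were called higher and 34.8% lower. Epithelial markers went both ways, since most alveolar, club and ciliated cell markers were lower, as given below with the receptors. All 8 group 2 innate lymphoid cell markers were called higher, with a summed level of 875 to 1224 CPM in IL-33 libraries and 137 to 167 CPM in controls. Most of the control sum was Rora, at 72.4 to 106 CPM. Il17rb, Klrg1, Il5 and Il13 averaged 1.47, 1.52, 0.181 and 0.0473 CPM in controls. Of 6 regulatory T cell markers 5 were called higher and Cd4 was not called, with sums of 197 to 360 CPM in IL-33 libraries and 38.0 to 58.9 CPM in controls. Of 8 mast cell and basophil markers 6 were tested and 4 called higher, with sums of 19.1 to 21.7 CPM in IL-33 libraries and 5.35 to 10.3 CPM in controls. None of these markers was at 0 in all libraries, and Il13 and Mcpt8 were at 0 in some controls. All 5 goblet cell markers were called higher, with sums of 740 to 3108 CPM against 4.56 to 99.6 CPM, as were 2 of 3 tested basal cell markers of the 4 listed, with sums of 6.83 to 12.7 CPM against 1.84 to 5.61 CPM. The part of these cells in the Areg level was not tested.

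Ereg encodes epiregulin, a ligand of EGFR and ERBB4. It had 4, 5, 2, 5 and 2 reads in IL-33 libraries 1 to 5 and 5, 5, 7, 4 and 2 reads in control libraries 1 to 5. With 18 reads in all in IL-33 lungs and 23 in controls, it was left out by the low-count filter, and a difference was not detectable at this depth. Tested without the filter it had a log2 fold change of -0.35 and an adjusted p of 0.599. Of its 75-base windows 1.65% occur in another annotated gene, and 141 of its exonic bases overlap the antisense gene Gm19610.

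Hbegf encodes heparin-binding EGF-like growth factor and had the most reads of the 5 ligands in every library. It stood at 48.0, 45.0, 34.6, 39.3 and 30.4 CPM in IL-33 libraries 1 to 5, against 40.4, 42.1, 43.1, 47.6 and 49.9 CPM in control libraries 1 to 5. The groups overlapped, with 3 IL-33 libraries below every control and the other two within the range of the controls. Its log2 fold change of -0.18 ± 0.13 did not pass (adjusted p = 0.188), and it passed under none of the alternatives tried, where it ranged from -0.26 to -0.10.

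Tgfa encodes transforming growth factor alpha, an EGFR ligand made by epithelium and macrophages. It stood at 7.52, 10.4, 8.45, 10.2 and 12.4 CPM in IL-33 libraries 1 to 5, against 22.7, 29.1, 26.0, 30.7 and 29.6 CPM in control libraries 1 to 5. Every IL-33 library lay below every control. The means were 9.78 ± 1.88 CPM in IL-33 lungs and 27.6 ± 3.27 CPM in controls (SD, n = 5 each), and the log2 fold change was -1.48 ± 0.15 (edgeR adjusted p = 6.46e-07). Btc encodes betacellulin, a ligand of EGFR and ERBB4. It had 6, 6, 4, 13 and 17 reads in IL-33 libraries 1 to 5 and 47, 41, 47, 43 and 34 reads in control libraries 1 to 5, and the groups did not overlap. In CPM it averaged 0.817 ± 0.314 in IL-33 lungs and 4.03 ± 0.871 in controls (SD, n = 5 each), a log2 fold change of -2.21 ± 0.25 (edgeR adjusted p = 5.85e-06). Among the 6 genes that fell, Btc thus had the lowest ratio of IL-33 to control, with the fewest reads. Areg and Btc, 2 ligand genes with no protein-coding gene between them, moved in opposite directions, while Epgn, the ligand gene at the other end of the cluster, had 7 reads in all in IL-33 lungs and 4 in controls and was not tested. The noncoding neighbours Gm19610 and Gm19619 had 2 reads and 1 read in IL-33 lungs, against 8 and 0 in controls.

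Levels of different genes were compared per length, as RPKM, which is CPM divided by the kilobases of merged exon. Areg was the ligand with the highest mean in IL-33 lungs, 10.5 ± 5.70 RPKM, with Hbegf next at 8.16 ± 1.50, Tgfa at 1.51 ± 0.289, Btc at 0.181 ± 0.0695 and Ereg at 0.0858 ± 0.0389 RPKM (SD, n = 5). In controls the order was Hbegf at 9.23 ± 0.827, Tgfa at 4.25 ± 0.503, Areg at 2.40 ± 1.61, Btc at 0.891 ± 0.193 and Ereg at 0.108 ± 0.0557 RPKM (SD, n = 5). The ranges of Areg and Hbegf overlapped in IL-33 lungs, as did those of Btc and Ereg there and of Tgfa and Areg in controls, so those neighbours in the order are not separated by the spread between libraries, although Btc was above Ereg within each IL-33 library. The order of Areg and Hbegf in IL-33 lungs turned with the length used: with the longest transcript in place of merged exons, Areg made up 36.9% of the ligand sum there and Hbegf 53.1%. Over merged exons, of the summed level of the 5 ligands, Areg made up 47.9% ± 13.7 in IL-33 lungs and 13.7% ± 7.44 in controls, and Tgfa 8.37% ± 4.55 in IL-33 lungs and 25.2% ± 1.67 in controls. Hbegf made up 42.3% ± 9.54 and 55.1% ± 6.29, and Btc 1.03% ± 0.770 and 5.31% ± 1.17, in IL-33 lungs and controls in that order. Areg's shares did not overlap, though control 2, at 26.8%, lay just under IL-33 library 5, at 27.3%. The sum itself overlapped between groups, at 11.7 to 27.5 RPKM in IL-33 lungs and 14.1 to 19.5 RPKM in controls.

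**Figure D3:**
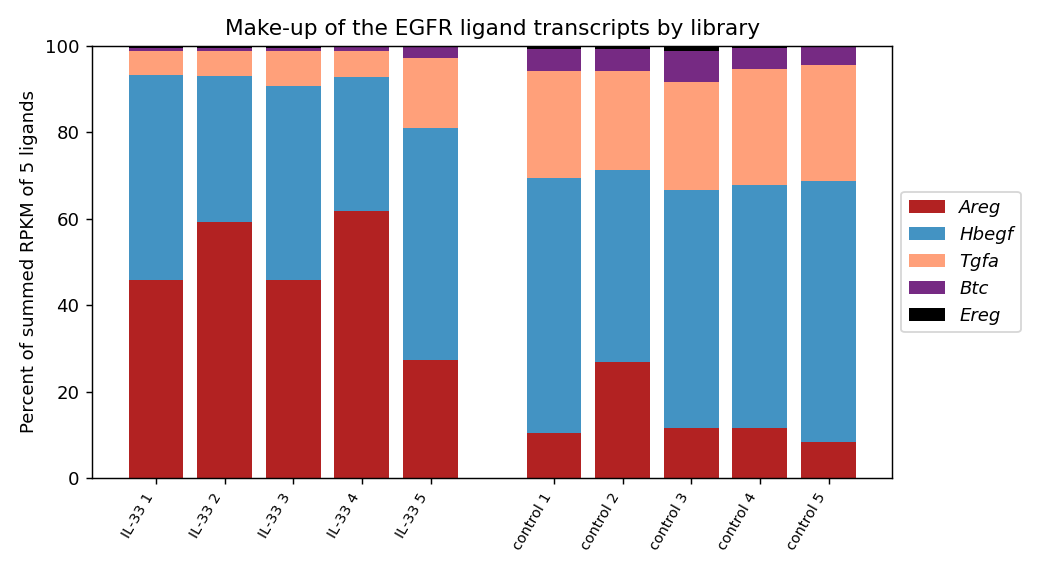
Share of each ligand in the summed RPKM of the 5 EGFR ligands (stacked bars, percent), 1 bar per library, IL-33 libraries left and controls right. Areg takes 27.3% to 61.7% of the bar in IL-33 libraries and 8.26% to 26.8% in controls, while Tgfa and Btc narrow and Hbegf stays a large part of every bar.

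Ratios between members within a library do not depend on library scaling, apart from the 0.1 CPM added before taking logs. Between groups, 9 of them were compared by an exact permutation test, two-sided and adjusted over the 9 ratios, which were chosen after values were seen. They were not corrected for length and GC content. That correction took the log2 fold change of Areg from 2.16 to 1.33, of Tgfa from -1.48 to -1.35 and of Hbegf from -0.18 to -0.15. With 5 libraries against 5 the smallest p such a test can give is 0.00794. Areg over Tgfa averaged 0.18 ± 1.08 in IL-33 lungs and -3.37 ± 0.70 in controls on the log2 scale (SD, n = 5 each), a difference of 3.55 ± 0.58 (exact permutation adjusted p = 0.0143), with all 5 IL-33 libraries above every control. Areg over Btc differed by 4.26 ± 0.62 and Hbegf over Tgfa by 1.31 ± 0.22, each with the same exact permutation adjusted p and with no overlap. Tgfa over Btc was also higher in IL-33 lungs, by 0.71 ± 0.20 (exact permutation adjusted p = 0.0143), so Btc fell further than Tgfa. Areg over Hbegf was higher by 2.25 ± 0.50 (exact permutation adjusted p = 0.0238), with 4 of 5 IL-33 libraries above every control.

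The receptor genes fell together and by less than Tgfa, Btc and Errfi1. Egfr, which encodes the receptor for all 5 ligands (ENSMUSG00000020122, chromosome 11, 16752203 to 16918158), stood at 25.2, 25.3, 25.2, 24.4 and 28.2 CPM in IL-33 libraries 1 to 5, against 39.4, 76.7, 57.8, 54.3 and 41.9 CPM in controls 1 to 5. The IL-33 libraries lay close together and below every control, while the controls were spread widely. The log2 fold change was -1.07 ± 0.18 (edgeR adjusted p = 4.20e-05), and -0.92 without control 2. Erbb2 (ENSMUSG00000062312, chromosome 11, 98412470 to 98437716) stood at 31.0, 35.5, 36.4, 41.5 and 36.6 CPM in IL-33 libraries 1 to 5, against 47.9, 57.5, 56.5, 57.5 and 57.5 CPM in controls 1 to 5. Control 1 was the lowest control and still above every IL-33 library. The log2 fold change was -0.61 ± 0.08 (edgeR adjusted p = 2.85e-05), and 9 of its exonic bases overlap Mien1 on the opposite strand. Erbb3 (ENSMUSG00000018166, chromosome 10, 128567523 to 128589652) stood at 46.2, 44.1, 52.6, 61.8 and 52.7 CPM in IL-33 libraries 1 to 5, against 66.4, 95.8, 95.8, 106.9 and 98.1 CPM in controls 1 to 5. Here too control 1 was the lowest control without reaching the IL-33 range, and the log2 fold change was -0.84 ± 0.15 (edgeR adjusted p = 4.69e-05).

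Between receptors, Egfr over Erbb2 was lower in IL-33 lungs by a log2 difference of -0.42 ± 0.17 (exact permutation adjusted p = 0.0408), and Erbb2 over Erbb3 was higher by 0.22 ± 0.08 (exact permutation adjusted p = 0.0446). Both ratios overlapped between groups, with 3 of 5 and 1 of 5 IL-33 libraries outside the range of the controls. Egfr over Erbb3 had a difference of -0.19 ± 0.18 and did not pass (exact permutation adjusted p = 0.317). Per length, Erbb3 and Erbb2 led the receptors with 8.56 ± 1.15 and 6.95 ± 0.717 RPKM in IL-33 lungs, against 15.4 ± 2.55 and 10.6 ± 0.808 RPKM in controls (SD, n = 5 each), and Egfr had 2.27 ± 0.128 RPKM in IL-33 lungs and 4.77 ± 1.32 RPKM in controls. Erbb4, the remaining receptor of the family, was left out by the low-count filter. It had 0, 3, 2, 6 and 6 reads in IL-33 libraries 1 to 5 and 20, 22, 14, 7 and 25 reads in control libraries 1 to 5, so every IL-33 library was below every control in reads.

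Most markers of alveolar, club, ciliated and endothelial cells were lower alongside the receptors, whereas the goblet and basal cell markers given above, also epithelial, were higher. Counts of called markers stand beside 34.8% called lower and 35.1% called higher over all tested genes. Of 7 alveolar type 1 cell markers 6 were called lower, with a summed level of 2022 to 2547 CPM in IL-33 libraries and 4236 to 4678 CPM in controls. Of 7 alveolar type 2 cell markers 5 were lower, with Sftpc not called and Sftpa1 higher, and overlapping sums of 15876 to 19164 CPM against 19097 to 22020 CPM. Club cell markers were lower in 4 of 5 cases (sums of 11467 to 13290 CPM against 18895 to 21082 CPM), ciliated cell markers in 3 of 5 (sums of 211 to 358 CPM against 394 to 572 CPM) and endothelial markers in 5 of 6 (sums of 2182 to 3015 CPM against 5074 to 5691 CPM). Of 6 fibroblast markers 4 were lower and 2, Col1a1 and Col1a2, were higher, with overlapping sums of 3213 to 3928 CPM against 3743 to 4057 CPM. None of these markers was at 0 in any control library. Markers of infiltrating cells moved the other way, with 5 of 6 eosinophil, 5 of 6 neutrophil and 7 of 7 recruited macrophage markers higher and summed levels of 65.5 to 82.3, 560.5 to 771.4 and 1635 to 2779 CPM in IL-33 libraries, against 15.01 to 17.1, 83.9 to 258.5 and 222 to 257 CPM in controls. Siglecf, of the eosinophil list, was the exception among them that was called lower (log2 -0.56 ± 0.11, edgeR adjusted p = 0.000985), and the neutrophil marker Csf3r was not called. Siglecf made up most of the eosinophil sum in controls, at 13.0 to 15.3 CPM, where Epx averaged 0.0175 and Prg2 0.140 CPM. Which cells held Siglecf was not tested. Alveolar macrophage markers were mixed, 3 higher and 2 lower of 6, with sums of 3649 to 4616 CPM against 475 to 647 CPM. Most of that sum was Chil3, which averaged 3599 ± 354 CPM in IL-33 lungs and 180.5 ± 75.9 CPM in controls (SD, n = 5 each). Cell make-up itself was not measured, and its part in the lower receptor levels was not tested.

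Errfi1, whose product (also called MIG6) shuts off EGFR and is itself induced by EGFR signalling, was the most abundant of the 9 genes. It stood at 207, 117, 73.6, 150.4 and 148 CPM in IL-33 libraries 1 to 5, against 656, 348, 438, 411 and 323 CPM in control libraries 1 to 5. Control 1 was far above the other controls, and every IL-33 library lay below every control. The means were 139 ± 49.0 CPM in IL-33 lungs and 435 ± 132 CPM in controls (SD, n = 5 each), a log2 fold change of -1.64 ± 0.30 (edgeR adjusted p = 5.85e-05). It was -1.46 without control 1. Errfi1 fell while Areg rose, and neither a link between them nor the part of cell make-up was tested. Of tested genes 8.79% fell at least 2-fold with a call, as Errfi1, Tgfa, Btc and Egfr did.

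The wider pathway was read from 5 lists of 66 genes, of which 61 were tested. Of these, 13 were called higher and 26 lower, with a median log2 fold change of -0.13, where 35.1% of all tested genes were called higher and 34.8% lower. The lists' calls in all were no more frequent than the 69.9% of all tested genes, so these counts describe the lists and set none of them apart. Among other family ligands and receptors, 1 rose and 3 fell of the 4 tested of 7. Nrg1, a neuregulin that binds ERBB3 and ERBB4 and was the most abundant of the list, stood at 3.26, 2.65, 3.64, 3.44 and 2.68 CPM in IL-33 libraries 1 to 5, against 12.3, 7.35, 5.98, 4.91 and 8.94 CPM in controls 1 to 5. It fell by 1.35 ± 0.24 (log2, edgeR adjusted p = 0.000227), without overlap. Nrg2, also a neuregulin, fell by 1.29 ± 0.21 (log2), and Egf by 0.74 ± 0.19 (log2). Egf was no longer called after the length and GC correction (log2 -0.49, adjusted p = 0.0663). Nrg4, an ERBB4 ligand, was called higher at 0.76 ± 0.33 (adjusted p = 0.0472). That call was lost by DESeq2, without the low-count filter, without any one of IL-33 libraries 2, 3 and 5 or controls 1, 2, 3 and 4, and without the 3 libraries with the most Fos, with log2 fold changes of 0.60 to 0.77 and adjusted p of 0.0662 to 0.140 in those fits.

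Of 10 ligand shedding genes 9 were tested, with 3 called higher, 3 lower and a median of 0.10. Adam17, the main sheddase of Areg, Tgfa and Hbegf, averaged 103 ± 3.72 CPM in IL-33 lungs and 96.1 ± 6.53 CPM in controls (SD, n = 5 each) and was not called (log2 0.10 ± 0.05, adjusted p = 0.180), though it was called at 0.20 after the length and GC correction (adjusted p = 0.0151). Adam10, the main sheddase of Btc, had 0.03 ± 0.05. Adam12, of the same list, rose by 2.09 ± 0.21 (log2, edgeR adjusted p = 3.70e-07), with no overlap between groups. Adam9 fell by 0.52 ± 0.11 (log2, edgeR adjusted p = 0.000363), also without overlap. Adam8, a metalloprotease gene of leukocytes, stood at 153, 192, 143, 173 and 162 CPM in IL-33 libraries 1 to 5, against 18.5, 33.9, 17.4, 13.1 and 20.9 CPM in controls 1 to 5, and rose by 2.997 ± 0.24 (log2, edgeR adjusted p = 4.93e-08). Timp3, an inhibitor of ADAM17, stood at 582, 431, 607, 717 and 711 CPM in IL-33 libraries 1 to 5, against 1253, 1492, 1572, 1867 and 1885 CPM in controls 1 to 5, and fell by 1.40 ± 0.17 (log2, edgeR adjusted p = 2.70e-06). Rhbdf1, which encodes an iRhom partner of ADAM17, fell by 1.12 ± 0.14 (log2), and its paralogue Rhbdf2 had 0.24 ± 0.12 and was not called (adjusted p = 0.0693), while it was called at 0.41 after the length and GC correction, at 0.24 with the replicate block, at 0.28 without IL-33 library 5 and at 0.29 without control 2.

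Of 13 genes of receptor turnover and inhibition 1 was called higher and 6 lower, with a median of -0.23. Cbl, which encodes a ubiquitin ligase that sends activated EGFR for degradation, averaged 136 ± 7.07 CPM in IL-33 lungs and 93.6 ± 6.70 CPM in controls (SD, n = 5 each) and rose by 0.54 ± 0.06 (log2, edgeR adjusted p = 7.59e-06). Lrig3, of a family of transmembrane ERBB regulators, fell by 0.95 ± 0.18 (log2), and Usp8, a deubiquitinase that acts on internalised EGFR and the most abundant of the list, fell by 0.72 ± 0.10 (log2). Of 19 adaptor and RAS-ERK cascade genes 5 were called higher and 8 lower, with a median of -0.11. Map2k2, which encodes the ERK kinase MEK2, rose by 0.67 ± 0.05 (log2), and Sos2, which encodes a RAS exchange factor, fell by 0.97 ± 0.11 (log2). Mapk3, which encodes ERK1 and was the most abundant of that list, was called at 0.27 ± 0.07 (adjusted p = 0.00753) and turned to -0.07 without a call after the length and GC correction.

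Of 17 ERK feedback and induced genes 16 were tested, with 3 called higher, 6 lower and a median of -0.13, against 35.1% higher and 34.8% lower over all tested genes. Etv4, which encodes an ETS factor induced by ERK, averaged 1.98 ± 0.401 CPM in IL-33 lungs and 0.553 ± 0.244 CPM in controls (SD, n = 5 each) and rose by 1.80 ± 0.26 (log2, edgeR adjusted p = 9.76e-05). Dusp5 rose by 1.48 ± 0.33 (log2, edgeR adjusted p = 0.000264) and Myc, a growth regulator, by 1.02 ± 0.31 (log2, edgeR adjusted p = 0.00332), both with overlap between groups. Spry1, which encodes a feedback inhibitor of receptor tyrosine kinases, stood at 65.4, 63.3, 48.5, 69.3 and 53.8 CPM in IL-33 libraries 1 to 5, against 152, 163, 135, 142 and 135 CPM in controls 1 to 5, and fell by 1.27 ± 0.11 (log2, edgeR adjusted p = 1.73e-07). Spry2, Spred1, Spred2 and Etv5 also fell, by 0.84, 0.90, 1.17 and 1.17 (log2), and Ccnd1, cyclin D1 and the most abundant of the list, by 0.49 (log2). Genes of this list, which were called in both directions, respond to many receptors besides those of the ERBB family. In all 5 lists, single genes printed beyond the called member with the largest rise or fall and the most abundant member were chosen after their values were seen.

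**Figure D4:**
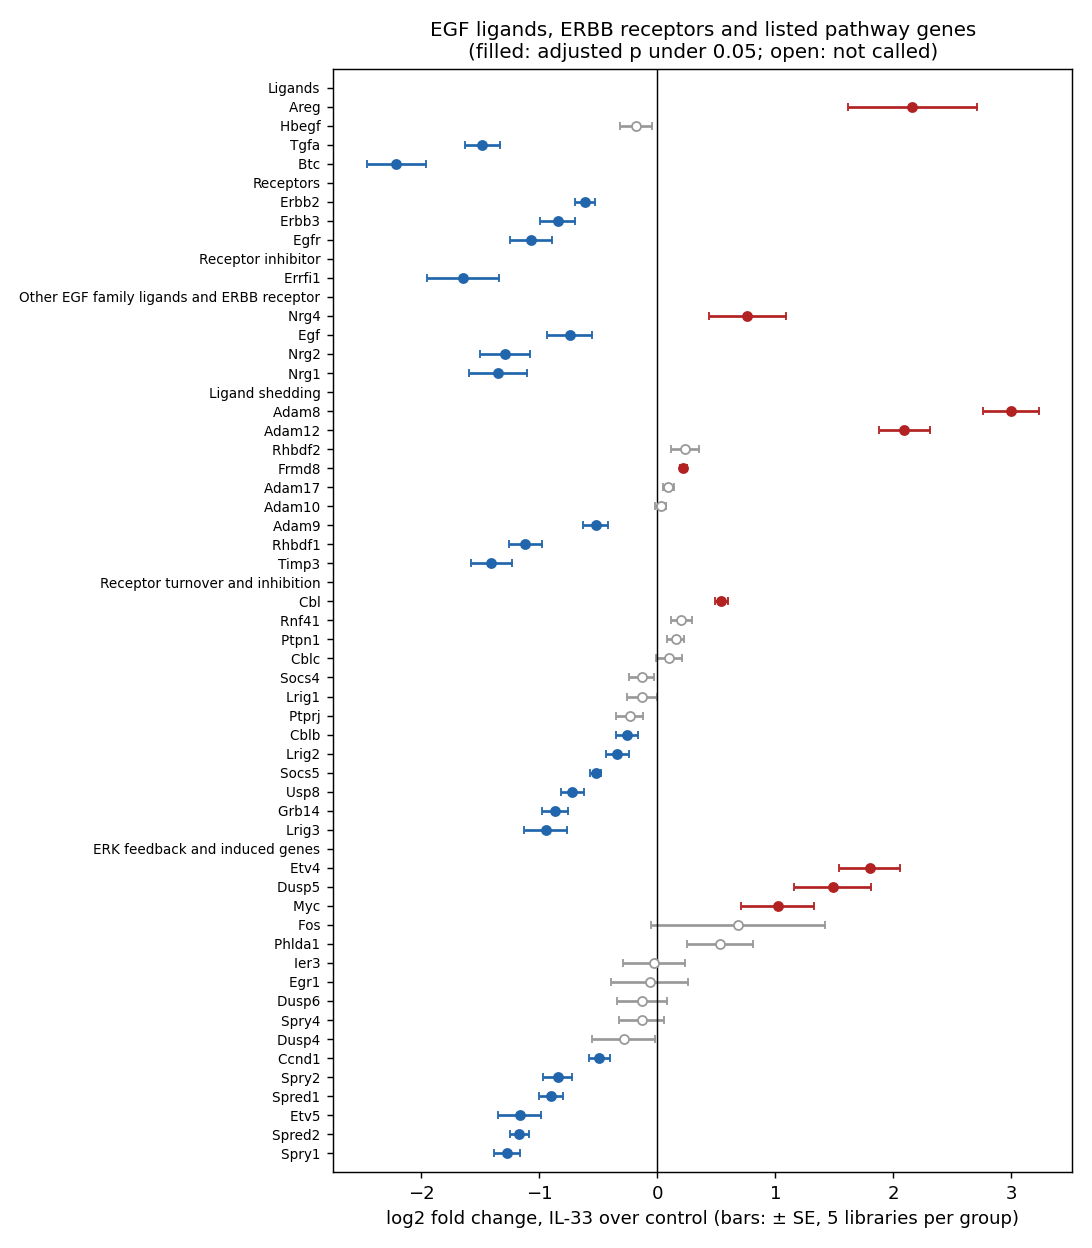
Log2 fold change of IL-33 over control with its SE (5 libraries per group) for the 8 tested genes and for the tested genes of 4 of the 5 pathway lists, ordered within each list. Filled points are called at an adjusted p under 0.05 by edgeR and open points are not. Areg lies at 2.16 and the receptors between -1.07 and -0.61, and the sheddase genes Adam17 and Adam10 lie near 0 without a call. In the same list Adam8 and Adam12 lie above 0 and Adam9 below 0, each with a call.

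For each of the 9 genes the most similar patterns were sought among 13506 genes, by the smallest root mean square difference between log2 profiles over the 10 libraries after centring. The group difference shapes such likeness, so it describes these libraries only. Areg lay nearest to Ccl4, a chemokine gene, at 0.38 log2 units, and to Lif, an IL-6 family cytokine gene, at 0.41. Ccl4 rose by 2.29 and Lif by 1.83 (log2). Since both were chosen for likeness to Areg, sharing the size of its rise and much of its spread among libraries is no separate result. Ccl4 had 4 to 15 reads per control library, and its log2 fold change ranged from 1.23 to 2.59 over the alternatives. Tgfa lay nearest to Abcc9 (0.12) and Ccrl2 (0.13), Btc to Tns2 (0.17) and Robo2 (0.17), and Errfi1 to Tubb1 (0.24) and Rasgef1b (0.25). Among receptors, Egfr lay nearest to Pde4d (0.14) and Klf3 (0.15), Erbb2 to Zfp975 (0.05) and Ago4 (0.06), and Erbb3 to Ccdc186 (0.09) and Kcnh1 (0.10). All 12 of the genes named for Tgfa, Btc, Errfi1 and the receptors were called lower, which follows from choosing them by likeness to genes that fell. Hbegf lay nearest to Spsb1 (0.12) and Cyb5d2 (0.12) and Ereg to Nectin1 (0.15) and Zfp607b (0.16), 4 genes without a call, and Ereg's profile rests on its few reads.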

How the data were processed

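Lung RNA of 10 mice was sequenced, and the deposited files give raw read counts per gene for each library. Per the submitters' processing notes the authors used FastQC 0.11.6, MultiQC 1.6, STAR 2.5.4b and HTSeq 0.9.1 with GRCm38. Per the labels, the library kit keeps strand. For the annotation release and the strand setting of the counting: not given in the sources used here. Lines that name no gene stayed out of library sizes and tests. Reads outside genes made up 11.4% to 13.7% in IL-33 libraries and 10.4% to 11.1% in controls, multiply aligned ones 20.0% to 22.8% in IL-33 libraries and 15.0% to 16.2% in controls, and ambiguous ones at most 0.945%. No 2 libraries of a group agreed within sampling noise.

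The members and lists were chosen with earlier results of these data known. Counts were fitted with edgeR 4.0.16 in R 4.3.3, on all 10 libraries and with no covariate beside group. TMM factors ran from 0.969 to 1.03, filterByExpr kept 15695 genes, and calls of the quasi-likelihood test were made at 0.05 after Benjamini-Hochberg adjustment over them. SEs of log2 fold changes come from log2(CPM + 0.1). The fold change itself comes from the fit. RPKM uses merged exons of GENCODE M21, which shares the files' build, and 53274 of 53465 identifiers had a symbol. Pattern likeness used log2(CPM + 0.5) for protein-coding genes with a mean of at least 1 CPM, leaving out numbered models and ribosomal proteins. Named genes were the members and, of each pathway list, the called gene with the largest rise, that with the largest fall (mean of at least 1 CPM) and the most abundant. To these were added the chromosome 5 neighbours with reads and the 2 most similar patterns per member. Alternatives were DESeq2 1.42.0, limma-voom (limma 3.58.1), other scalings, filters and thresholds, a length and GC correction by splines, the replicate block and leaving out libraries. Replicate numbers were not taken to pair the samples, although a pairing was not excluded. The fit was tested on simulated data for IL-33 against control, with 200 changed genes among 15695. It found 67.2% of those changed 1.5-fold, 91.0% of those changed 2-fold and 97.0% of those changed 4-fold, with 5.03% false among its calls. The simulation gave every gene the same biological coefficient of variation, 0.136, and far fewer changed genes than the 10975 called here. These rates therefore need not hold for these data, least of all for genes as variable as Areg. Ratios and figures used Python 3.11.15, scipy 1.17.1, numpy 2.4.6 and pandas 2.3.3. A planned comparison of protein sequences was not run.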

Additional observations from a re-analysis of the deposited data

Results flagged for a closer look

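In groups of 5 libraries, 1 library was set far from the other four when its gap to the nearest took more than 0.71 of the group's range, Dixon's 95% limit. Of 86 groups examined 12 passed that limit, where chance gives about 1 in 20 for independent groups. These groups are not independent, since some genes were named for patterns like those of a member, and some hold only a few reads, so the number is not evidence of an excess. Among the members, Areg had 6.36 CPM in control 2, against 1.71 to 2.46 CPM in the other controls, and Egfr had 28.2 CPM in IL-33 library 5, against 24.4 to 25.3 CPM in the others of its group. Control 1 was low for Erbb2, at 47.9 CPM against 56.5 to 57.5 CPM, and for Erbb3, at 66.4 CPM against 95.8 to 106.9 CPM. It was also low for Ago4 at 35.8 CPM, Tns2 at 415 CPM and Zfp975 at 8.07 CPM, genes whose patterns resembled those of Erbb2 or Btc. Control 2 was high for Cbl at 105 CPM and for Klf3 at 359 CPM, and IL-33 library 4 was high for Pde4d at 16.2 CPM. IL-33 library 2 was high for Epgn at 0.345 CPM, from 3 reads, and for the noncoding gene Gm19619 at 0.115 CPM, from 1 read, the only read of that gene in any library.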

How the results depend on the processing

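Direction and side of the threshold held for all 8 tested members under each of the 20 alternatives in which a fold change was refitted, and 1 member was called higher and 6 lower in every fit. Leaving out single libraries gave log2 fold changes of 1.94 to 2.62 for Areg, -1.59 to -1.40 for Tgfa, -2.44 to -2.11 for Btc, -1.17 to -0.92 for Egfr, -0.67 to -0.56 for Erbb2, -0.95 to -0.79 for Erbb3 and -1.82 to -1.46 for Errfi1. The length and GC correction gave 1.33 for Areg and -0.85 for Egfr, and moved the median of all genes from -0.01 to -0.09. Of 10975 genes called, 8810 kept call and direction under it. Calls over all genes ranged from 9316 at an adjusted p of 0.01 to 12120 without the low-count filter, and pathway list calls from 11 to 16 higher and 25 to 29 lower. Mapk3 turned from 0.27 to -0.0687 with the correction and -0.0680 with the correction and the replicate block. The cause was not tested. Over 79 other genes in 1580 refits, 28 refits of 7 genes lost a call and 32 of 11 genes gained one. With the longest transcript as length, Areg's share of the ligand sum was 36.9% in IL-33 lungs and 9.34% in controls, Hbegf's was 53.1% in IL-33 lungs and 61.9% in controls, so Hbegf led in both groups. Ereg's share was then 0.310% in IL-33 lungs and Btc's 4.01% in controls, since that length is shorter for Hbegf, Tgfa and Btc than merged exons. Over the 5 same-numbered pairs, r of the deviations was -0.0505 to 0.265 and 3 were over 0.1, against 5 of 20 pairs of unlike number. Since not every same-numbered pair was over 0.1 and no label ties the numbers to a shared source, they were not taken as pairs. The replicate block called 11122 genes and left every member's call as it was, with Areg at 2.15. Depth limits Ereg, Epgn and Erbb4, where the floor of 3 reads corresponds to between 0.218 and 0.384 CPM. Floors cover counting error only.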
